A study of Mus musculus with 4 samples.

Results

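The genes described here encode the muscle nicotinic acetylcholine receptor and the proteins that gather it under the nerve ending. They are 10 of the 52636 genes in the deposited count table, chosen by symbol: the receptor subunit genes Chrna1, Chrnb1, Chrnd, Chrng and Chrne, and Agrn, Lrp4, Musk, Dok7 and Rapsn. Each symbol matched 1 gene identifier, and all 10 passed the filter on low counts that left 18998 genes for testing. The RNA came from C2C12, an established, clonal line of mouse myoblasts that can fuse into myotubes. The labels name no nerve in the cultures. In the sesaminol group (2 libraries) the cells differentiated for up to 8 days in adipogenic medium with 50 µM sesaminol (SML), a sesame lignan, and in the control group (2 libraries) they were kept in that medium without the compound. Whether the libraries within a group stem from different cultures is not stated, and p-values therefore reflect the spread between these libraries alone, which may be technical.

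The muscle acetylcholine receptor is a ring of subunits, with alpha (Chrna1), beta (Chrnb1) and delta (Chrnd) always present and gamma (Chrng) in the embryonic form replaced by epsilon (Chrne) in the adult form. Agrin, secreted by nerve and also by muscle, binds LRP4 and so activates the receptor kinase MuSK. The adaptor DOK7 keeps MuSK active from inside the cell, and rapsyn, the product of Rapsn, holds the receptors together in clusters. In muscle without nerve the embryonic subunit genes are expressed along the fibre, and myogenic factors such as MyoD and myogenin bind E-boxes in the promoters of several receptor genes.

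Total counts ran from 10283135 to 24362899 per library. Values are given in CPM, the count of a gene relative to its TMM-scaled library size. Mitochondrial genes held 3.36% and 1.44% of the counts in sesaminol replicates 1 and 2, against 3.06% and 2.95% in control replicates 1 and 2. Among 10 muscle markers, 5 fell and 0 rose with sesaminol, where 3.24% of all genes tested fell and 2.72% rose. Their summed level was 7751 and 5738 CPM in the sesaminol libraries, against 13955 and 14030 CPM in the controls. Des and Acta1, which held much of this sum, did not pass, nor did Myf5, Cdh15 and Ttn. For Myf5 the groups overlapped, with 50.3 and 26.2 CPM with sesaminol, against 32.5 and 32.8 CPM in controls. None of the 10 was at 0 in any library, as the label of a myoblast line implies. The part of the lower muscle level in the results below was not tested. Fewer differentiated cells and less RNA per cell cannot be told apart in bulk RNA. Motor neuron, adipocyte, macrophage and endothelial lists each summed to at most 22.3 CPM in a library. The motor neuron marker Mnx1 was at 0 in all libraries, and Slc18a3, Adipoq, Lep, Fcgr1, Lyz2 and Cdh5 stayed under 1 CPM. Other markers of these lists were higher. Csf1r of the macrophage list had 14.7 and 16.2 CPM with sesaminol, against 15.4 and 11.9 CPM in controls. Syt1 of the motor neuron list had 3.47 and 8.03 CPM with sesaminol, against 4.95 and 5.39 CPM in controls. Pecam1 of the endothelial list had 2.14 and 3.94 CPM with sesaminol, against 2.58 and 2.62 CPM in controls. Of 8 Schwann cell markers, Sox10, S100b and Ngfr stayed under 1 CPM in all libraries. Pmp22, also expressed outside Schwann cells, rose (edgeR adjusted p = 0.0144). It brought the list to 307 and 196 CPM with sesaminol, against 113 and 115 CPM in controls. Egr2 of the same list fell, at 3.21 and 3.12 CPM with sesaminol, against 6.74 and 10.05 CPM in controls (edgeR adjusted p = 0.0491).

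Promoter windows were matched in RefSeq (GRCm38.p6) for 7 of the 10 genes, that is for all but Chrnd, Lrp4 and Rapsn. The 250 bases before the start site are printed for 5 of them, to set genes that fell beside genes that did not pass the test. Capitals mark each E-box, CANNTG, which MyoD family factors are known to bind, and each N-box, CCGGAA, an element of synapse-specific expression known from receptor promoters. Both strands were searched, and no E-box overlaps an N-box in these windows.
Chrna1 (chr2:73580339-73580588, minus strand): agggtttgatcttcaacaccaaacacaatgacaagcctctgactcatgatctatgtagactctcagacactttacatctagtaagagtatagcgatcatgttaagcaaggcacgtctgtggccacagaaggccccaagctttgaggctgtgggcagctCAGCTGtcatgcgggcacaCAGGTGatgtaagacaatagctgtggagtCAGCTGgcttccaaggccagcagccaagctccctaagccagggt
Chrng (chr1:87205561-87205810, plus strand): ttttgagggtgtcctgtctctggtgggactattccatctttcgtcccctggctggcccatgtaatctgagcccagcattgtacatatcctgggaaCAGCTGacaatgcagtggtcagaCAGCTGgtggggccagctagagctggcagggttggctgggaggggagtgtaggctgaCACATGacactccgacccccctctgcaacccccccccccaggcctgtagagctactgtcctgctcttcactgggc
Chrne (chr11:70619195-70619444, minus strand): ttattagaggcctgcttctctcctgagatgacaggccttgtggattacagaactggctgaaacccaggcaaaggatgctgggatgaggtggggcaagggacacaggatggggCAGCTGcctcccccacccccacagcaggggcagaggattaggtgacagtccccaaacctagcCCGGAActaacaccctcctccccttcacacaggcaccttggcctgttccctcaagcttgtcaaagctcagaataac
Musk (chr4:58285712-58285961, plus strand): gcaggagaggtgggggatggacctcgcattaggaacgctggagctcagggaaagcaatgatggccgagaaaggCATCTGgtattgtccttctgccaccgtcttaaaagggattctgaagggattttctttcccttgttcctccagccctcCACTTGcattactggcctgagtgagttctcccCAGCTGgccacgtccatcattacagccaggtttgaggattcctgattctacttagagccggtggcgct
Dok7 (chr5:35056516-35056765, plus strand): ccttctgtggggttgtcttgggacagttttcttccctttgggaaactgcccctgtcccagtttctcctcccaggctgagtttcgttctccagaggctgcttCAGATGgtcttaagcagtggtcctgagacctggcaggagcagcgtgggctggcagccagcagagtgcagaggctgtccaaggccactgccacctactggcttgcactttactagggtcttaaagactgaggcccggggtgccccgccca
Chrna1 held 3 E-boxes, beginning 92, 73 and 44 bases before the start, and the first and last read CAGCTG, a subset of the E-box letters. Chrng likewise held 3, with CAGCTG at 155 and 132 bases before the start, and this window begins inside the gene as GENCODE draws it, because a longer transcript starts upstream. Musk held 3, of which the one at 68 bases before the start read CAGCTG. Chrne held 1 E-box, a CAGCTG, and the only N-box among the 7 genes, at 76 bases before the start. Dok7 and Agrn each have 2 annotated starts. At the first, which is the one printed for Dok7, Dok7 held 1 E-box and Agrn 0. At the second, Dok7 held 0 and Agrn 1. Chrnb1, not printed, held 3, none of them CAGCTG. Of 32851 RefSeq windows of the same length, 66.2% held an E-box, 12.2% held 3 or more, 13.0% held CAGCTG, 1.26% held it more than once and 12.03% held an N-box. These matches describe letters only, and no match says only that the letters are not in the window.

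**Figure D1:**
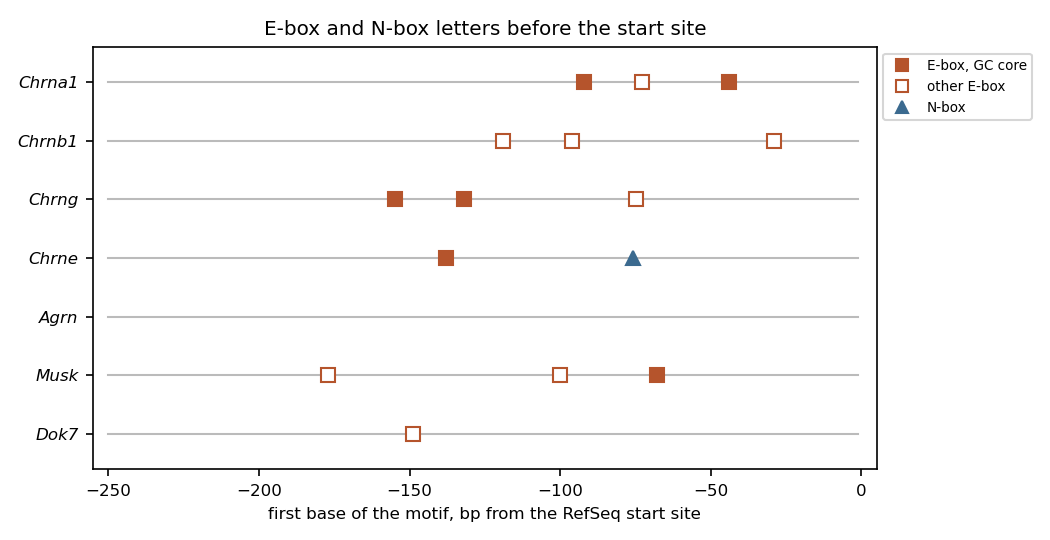
Position of E-box and N-box letters in the 250 bases before the RefSeq start site of 7 genes, by the first base of each motif in bp from the start. For Agrn and Dok7, with 2 annotated starts each, only the first is drawn. Filled squares are CAGCTG, open squares other E-boxes and the triangle the N-box, which occurs only in Chrne among these 7 windows.

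Of the 10 genes, 3 fell with sesaminol and 0 rose, at an adjusted p under 0.05 by the quasi-likelihood test of edgeR. At an unadjusted p under 0.05 in edgeR, 4 receptor subunit genes and 1 agrin pathway gene were lower and 0 were higher. The share of all genes at that unadjusted threshold was not counted. DESeq2 and limma-voom likewise called 0 as higher. The 3 that fell at the adjusted threshold were Chrnb1, Dok7 and Chrne, and the other 7 did not pass. Chrne passed the low-count filter only through the control libraries, where it was higher. The direction of its call was therefore partly set by that filter. Among all 18998 genes tested, 3.24% fell and 2.72% rose, 5.95% together. On the log2 scale the 10 genes had a median fold change of -0.49, against 0.022 over all genes tested. Sesaminol libraries lay wholly below the controls for 7 of the 10 genes, Chrne among them, as they did for 22.8% of all genes tested. They lay wholly above the controls for 0 of the 10, as they did for 24.2% of all genes tested.

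**Figure D2:**
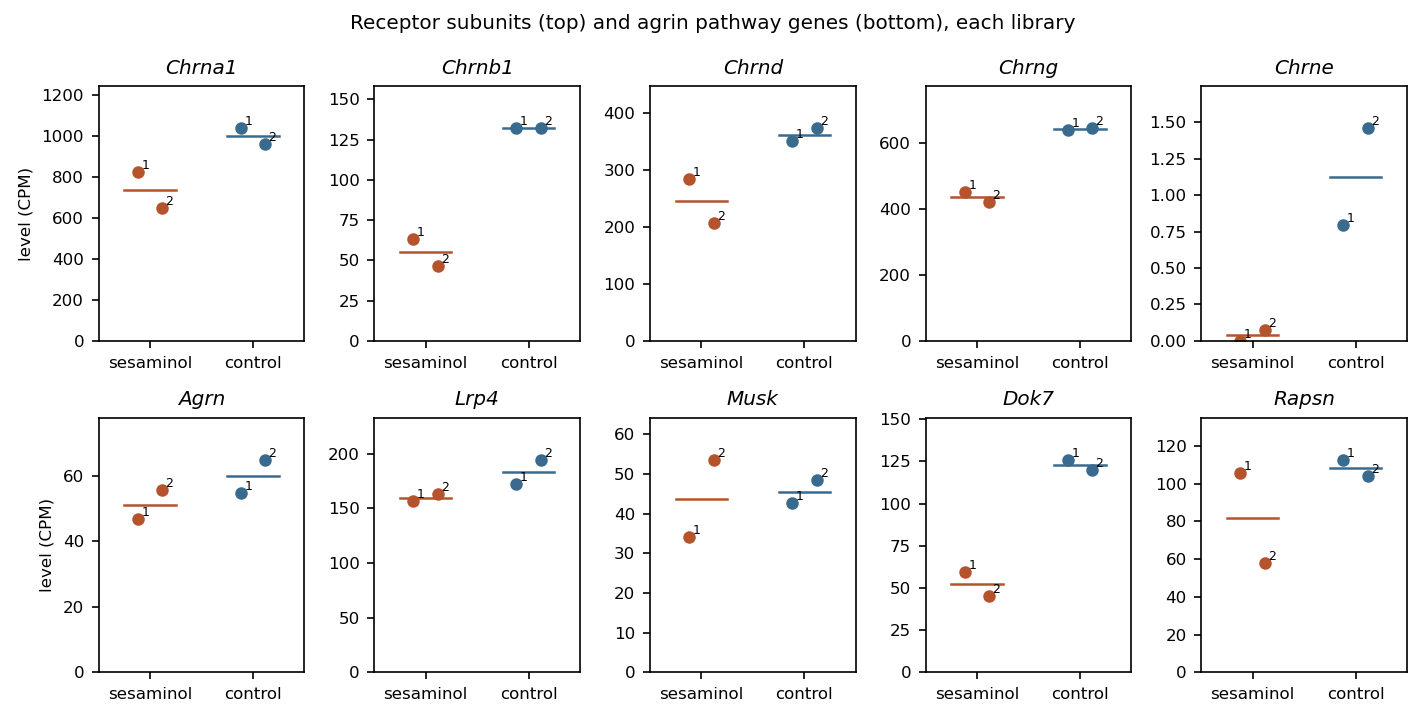
Level of each gene in CPM, sesaminol left and control right; each point is a library labelled with its replicate number, and the bar is the mean of 2. The pairs of points lie clearly apart for Chrnb1 and Dok7, while those of Musk, Agrn and Rapsn overlap.

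Among the receptor subunits, beta fell most clearly. Chrnb1 (ENSMUSG00000041189, chromosome 11, 69784036 to 69795943, minus strand, GRCm38) had 63.5 and 46.8 CPM in sesaminol replicates 1 and 2, against 132 CPM in both controls. The sesaminol libraries both lay below the controls, and the drop was 2.40-fold, a log2 fold change of -1.26 ± 0.19 (SE; edgeR adjusted p = 0.0062). With any single library left out, Chrnb1 still passed and its fall ranged from 2.07-fold to 2.90-fold.

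Alpha, the subunit that carries most of the transmitter binding site, had the highest level of the 10 genes. Chrna1 (ENSMUSG00000027107, chromosome 2, 73563215 to 73580338, minus strand) stood at 827 and 650.02 CPM with sesaminol, against 1038 and 961 CPM in controls. Sesaminol libraries were lower without overlap, but the log2 fold change of -0.44 ± 0.23 (SE) did not pass (edgeR adjusted p = 0.385).

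Gamma, the subunit of the embryonic receptor, had 452 and 422 CPM with sesaminol, against 638 and 643 CPM in controls. Both groups were tight and did not overlap, yet the log2 fold change of Chrng, -0.55 ± 0.20 (SE), did not pass (edgeR adjusted p = 0.173); DESeq2 called it (DESeq2 adjusted p = 0.0444). Delta, encoded by Chrnd, whose gene ends 4586 bp before Chrng on the same strand of chromosome 1, had 284 and 207 CPM with sesaminol, against 351 and 373 CPM in controls. Its groups did not overlap either, and its log2 fold change of -0.56 ± 0.21 (SE) did not pass (edgeR adjusted p = 0.193). Without sesaminol replicate 1, the log2 fold changes of Chrna1, Chrng and Chrnd were -0.66, -0.64 and -0.85. Without sesaminol replicate 2 they were -0.27, -0.50 and -0.34. In both runs the lone sesaminol library is assumed to vary like the controls.

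Epsilon, the adult subunit, was near the limit of detection. Chrne had 0 and 2 counts in sesaminol replicates 1 and 2, against 8 and 20 counts in control replicates 1 and 2, which come to 0 and 0.0744 CPM against 0.793 and 1.46 CPM. Both sesaminol values lie below the 3-count limits of 0.2004 and 0.1116 CPM of their libraries. The pooled rate with sesaminol was 0.0406 times that in controls (95% exact interval 0.00469 to 0.161, counting error only). With counts divided by 2, as if both reads of a pair had been counted, the interval is 0.000961 to 0.267. Chrne passed the test narrowly (edgeR adjusted p = 0.0487) and missed it with upper quartile scaling (0.0569), with library size alone (0.065) and without control replicate 1 (0.259). Without control replicate 2, and with counts divided by 2, it had too few counts to test, and DESeq2 gave it no adjusted p.

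Gamma exceeded epsilon in every library. Chrng had 5672 counts per Chrne count in sesaminol replicate 2 and no Chrne count to divide by in sesaminol replicate 1, against 805 and 442 in control replicates 1 and 2. With 1 count added to both genes, the log2 ratio was 12.72 and 11.88 with sesaminol, against 9.48 and 8.72 in controls. The groups did not overlap, and the exact permutation test, two-sided, gave p = 0.333, the smallest that 2 against 2 libraries allow.

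Levels between genes were compared per kb of exon (RPKM, the CPM value over the joined exon length in kb in GENCODE M21). The 5 subunits summed to 409 and 331 RPKM with sesaminol, against 549 and 540.1 RPKM in controls. Of the summed level Chrna1 made up 46.1% and 44.8% with sesaminol, against 43.1% and 40.6% in controls. Chrng made up 26.5% and 30.6% with sesaminol, against 27.9% and 28.6% in controls, and Chrnd 21.2% and 19.1%, against 19.5% and 21.0%. The share of Chrnb1 was 6.14% and 5.58% with sesaminol, against 9.49% and 9.65% in controls. Of these 4 subunits, only beta made up a smaller share in both sesaminol libraries without overlap.

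**Figure D3:**
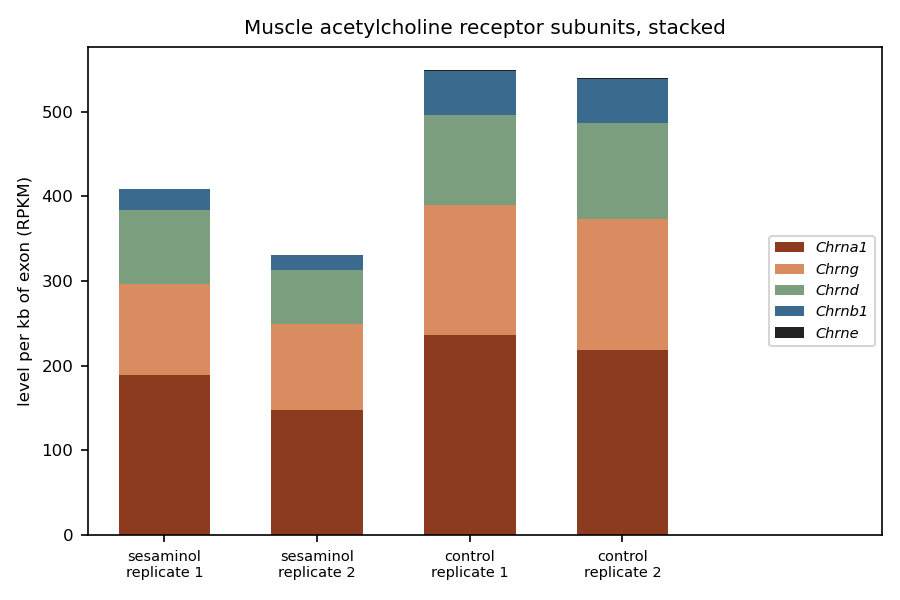
Stacked level of the receptor subunits in RPKM, the CPM value per kb of exon, for each library, sesaminol left of control. The total is 331 to 409 RPKM with sesaminol and 540.1 to 549 RPKM in controls; the Chrne layer is too thin to see.

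Count ratios inside a library do not depend on the scaling. Chrnb1 had 0.0767 and 0.0719 counts per Chrna1 count with sesaminol, against 0.127 and 0.137 in controls, without overlap. Chrng per Chrna1 was 0.546 and 0.649 with sesaminol, against 0.615 and 0.67 in controls, and overlapped. Chrnd per Chrng, 0.63 and 0.492 with sesaminol against 0.551 and 0.58 in controls, overlapped too. Of 8 such ratios, chosen after the values were seen, those of Chrnb1 to Chrna1 and of Dok7 to Musk separated the groups (exact permutation p = 0.333 each, Benjamini-Hochberg adjusted p = 1 over the 8).

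In the agrin pathway, the ligand and both parts of its receptor showed small differences. Agrn, encoding agrin, had 46.7 and 55.6 CPM with sesaminol, against 54.9 and 64.8 CPM in controls, and the groups overlapped. Its log2 fold change was -0.23 ± 0.17 (SE; edgeR adjusted p = 0.6). The count does not separate the agrin splice forms, of which the form made by neurons is the strong activator. Lrp4, encoding the agrin-binding receptor, had 157 and 163 CPM with sesaminol, against 172 and 194 CPM in controls. The sesaminol libraries were lower without overlap, by a log2 fold change of -0.20 ± 0.17 (SE; edgeR adjusted p = 0.649).

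Musk, encoding the kinase, had 34.1 and 53.5 CPM with sesaminol, against 42.6 and 48.4 CPM in controls. The sesaminol replicates lay on either side of both controls, and the log2 fold change was -0.053 ± 0.22 (SE; edgeR adjusted p = 0.953). Its sign changed with library size alone as scaling (0.039) and without control replicate 2 (0.034) or sesaminol replicate 1 (0.19).

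Dok7, encoding the adaptor that activates MuSK from the cytoplasm, fell. It had 59.6 and 45.0 CPM with sesaminol, against 126 and 120.1 CPM in controls (ENSMUSG00000044716, chromosome 5, 35056766 to 35087839, plus strand). Both sesaminol libraries were below both controls. The drop was 2.36-fold, a log2 fold change of -1.24 ± 0.19 (SE; edgeR adjusted p = 0.00614), and ranged from 2.05-fold to 2.81-fold with single libraries left out, passing each time. Relative to the kinase it serves, Dok7 had 1.75 and 0.841 counts per Musk count with sesaminol, against 2.95 and 2.48 in controls.

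Rapsn, encoding the clustering protein, had 105 and 57.9 CPM with sesaminol, against 113 and 104 CPM in controls. Sesaminol replicate 1 lay between the controls and replicate 2 well below them, and the log2 fold change was -0.41 ± 0.26 (SE; edgeR adjusted p = 0.489). Rapsn was 1.92-fold lower without sesaminol replicate 1 and 1.02-fold lower without sesaminol replicate 2. It was also the only 1 of the 10 genes with an overlapping gene of substantial count, Gm13778 on the opposite strand. Gm13778 had 42.9% of the count of Rapsn, but shares only 4 bp of exon with it, 0.222% of its exon length. The Rapsn value is therefore marked uncertain, and how many reads are affected is not known.

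The sesaminol replicates differed from each other more than the controls did. The ratio of replicate 1 to replicate 2 in CPM ran from 0.637 for Musk to 1.82 for Rapsn with sesaminol, and from 0.846 for Agrn to 1.08 for Rapsn in controls, leaving out Chrne. Replicate 1 was the higher sesaminol library for Chrna1, Chrnb1, Chrnd, Chrng, Dok7 and Rapsn, and the lower for Musk, Agrn and Lrp4.

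**Figure D4:**
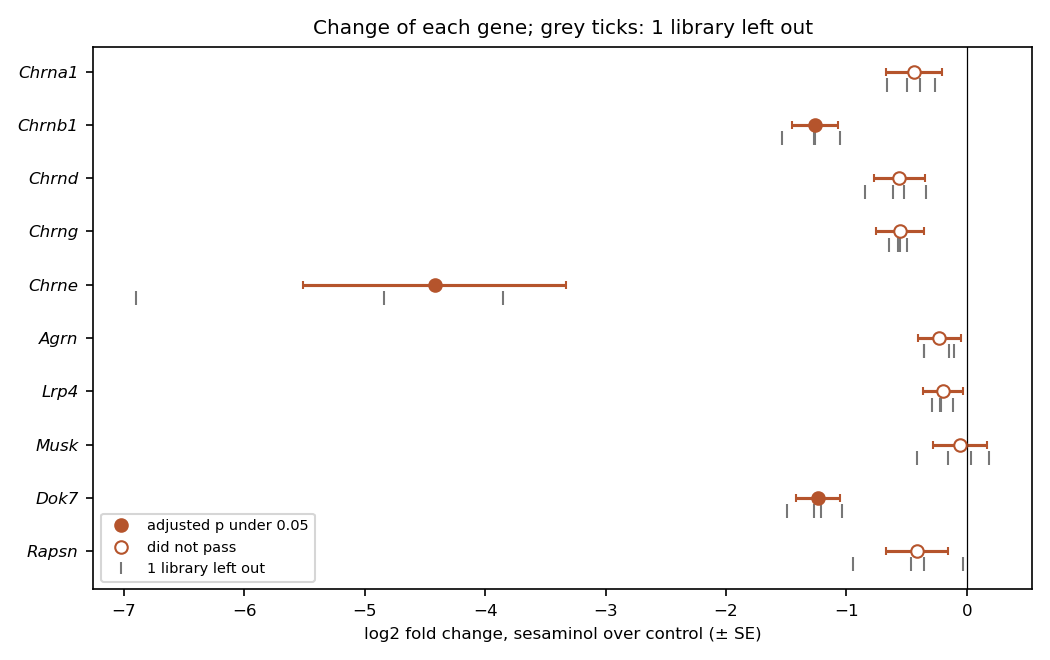
Log2 fold change of sesaminol over control for each gene with its SE (circles, filled where the edgeR adjusted p is under 0.05); grey ticks are the values with 1 library left out. Chrnb1 and Dok7 stay below -1 throughout, Musk spans 0, and the ticks of Chrne spread from -6.90 to -3.85.

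Per kb of exon the 10 genes kept nearly the same order in both groups. With sesaminol the order was Chrna1 (168 ± 28.5 RPKM, SD, n = 2), Chrng (105 ± 5.03), Chrnd (74.8 ± 16.6), Rapsn (45.3 ± 18.6), Chrnb1 (21.8 ± 4.67), Lrp4 (15.2 ± 0.407), Dok7 (12.2 ± 2.41), Musk (11.6 ± 3.64), Agrn (5.51 ± 0.679) and Chrne (0.022 ± 0.0311). In controls it was Chrna1 (228 ± 12.4 RPKM, SD, n = 2), Chrng (154 ± 0.957), Chrnd (110.2 ± 4.74), Rapsn (60.1 ± 3.37), Chrnb1 (52.1 ± 0.00114), Dok7 (28.8 ± 0.94), Lrp4 (17.4 ± 1.501), Musk (12.1 ± 1.10), Agrn (6.45 ± 0.758) and Chrne (0.666 ± 0.278). Dok7 and Lrp4 changed places. Neighbours in the order had overlapping ranges only for Dok7 and Musk with sesaminol. The 10 genes together took 0.192% and 0.188% of all counts with sesaminol, against 0.262% and 0.258% in controls.

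Other genes of the junction were taken from 7 lists of textbook membership, in which 112 of 113 symbols matched and 101 genes were tested. Of these, 12 fell and 4 rose, and the other 85 did not pass. Among all 18998 genes tested, 3.24% fell and 2.72% rose, and the counts of each list below stand beside the same shares. The 101 genes had a median of -0.092 on the log2 fold change scale, against 0.022 over all genes tested. The lists were described and not tested as sets.

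Most receptor subunits of the nervous system had few counts. Of 11 nicotinic subunits outside muscle, 9 had too few counts to test (at most 22 in any library), and Chrna7 and Chrnb2 were tested and did not pass. Chrnb2 had 28.1 and 21.8 CPM with sesaminol, against 15.2 and 15.5 CPM in controls (edgeR adjusted p = 0.0918). Its 1365 bp of exon shared with Adar on the opposite strand make this value uncertain.

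Among 19 partners of MuSK and rapsyn, 2 fell and the other 17 did not pass. Actn2, encoding alpha-actinin 2 of the Z-disc, had 10.02 and 7.66 CPM with sesaminol, against 96.0 and 109 CPM in controls, a fall of 11.7-fold (edgeR adjusted p = 0.000319). Sorbs2, an adaptor of the actin cytoskeleton, was at 63.8 ± 12.6 CPM with sesaminol and 129 ± 27.4 CPM in controls (SD, n = 2 each; edgeR adjusted p = 0.0252). Sorbs2 no longer passed without control replicate 2 (0.277) or with library size alone (0.0547), and overlaps the antisense gene Sorbs2os, which had 43.6% of its count.

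In the synaptic basal lamina list 1 of 17 genes rose and 2 fell. Lamb2, encoding the laminin beta 2 chain concentrated at the synapse, rose to 236 ± 33.4 CPM with sesaminol, against 136 ± 17.1 CPM in controls (SD, n = 2 each; 1.73-fold, edgeR adjusted p = 0.0437). Nid2, encoding nidogen 2, fell 2.19-fold (edgeR adjusted p = 0.00684) and Col4a2, a collagen IV chain, 1.70-fold (0.0454). Nid2 overlaps Rtraf and Col4a2 overlaps Col4a1, so reads may have been shared. With either control left out Lamb2 and Col4a2 no longer passed (0.307 to 0.686), and neither did Nid2 without control replicate 2 (0.0567). Acetylcholinesterase, encoded by Ache, had 1.60 and 4.39 CPM with sesaminol, against 7.03 and 5.76 CPM in controls, and did not pass (edgeR adjusted p = 0.294). Colq, its collagen-like anchor, had 4.01 and 3.35 CPM with sesaminol, against 3.17 and 5.68 CPM in controls, and overlapped.

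In the postsynaptic scaffold and membrane list 1 of 21 genes rose and 4 fell. Scn4a, the muscle sodium channel that lies in the depths of the junctional folds, had 10.5 and 6.17 CPM with sesaminol, against 34.5 and 39.4 CPM in controls, a fall of 4.50-fold (edgeR adjusted p = 0.00237). Sntb1, encoding beta 1 syntrophin, fell 2.32-fold (edgeR adjusted p = 0.00902) and Nos1, neuronal nitric oxide synthase, 3.78-fold (0.0204). Itga7, an integrin subunit of muscle named after its values were seen, fell 1.98-fold (edgeR adjusted p = 0.0487). Itga7 missed the threshold when control replicate 1 (0.54) or control replicate 2 (0.616) was left out. Itga3, another integrin subunit, rose to 114 ± 19.8 CPM with sesaminol, against 60.9 ± 0.471 CPM in controls (SD, n = 2 each; edgeR adjusted p = 0.019). Sntb1 no longer passed without control replicate 2 (0.0857), Nos1 without control replicate 1 (0.0835) and Itga3 without either control (0.208 and 0.212). The log2 fold change of Nos1 was -2.53 without sesaminol replicate 2, against -1.92 with all libraries. Utrn, encoding utrophin of the junctional membrane, had 102 and 103 CPM with sesaminol, against 106 and 133 CPM in controls, and did not pass (edgeR adjusted p = 0.613).

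Neuregulin signalling, which acts on subsynaptic nuclei, had 1 gene of 6 that fell, while the other 5 did not pass. Erbb3, a neuregulin receptor, had 30.6 and 41.3 CPM with sesaminol, against 76.7 and 92.6 CPM in controls (2.35-fold lower, edgeR adjusted p = 0.00774). Its partner Erbb2 had 37.9 and 53.6 CPM with sesaminol, against 67.9 and 67.3 CPM in controls, and did not pass (edgeR adjusted p = 0.158).

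Among 23 factors of synaptic and activity-dependent transcription, 2 rose and 3 fell. Myod1 had 207 and 139 CPM with sesaminol, against 340 and 363 CPM in controls, and Myog 463 and 706 CPM, against 1269 and 1411 CPM. Both fell (edgeR adjusted p = 0.0306 and 0.033), and neither passed once a control was left out (0.139 to 0.381). Hdac4, a deacetylase known to link denervation to receptor gene expression, had 78.5 and 76.8 CPM with sesaminol, against 28.3 and 38.9 CPM in controls, a 2.30-fold rise (edgeR adjusted p = 0.00733, and 0.0967 without control replicate 1). Hdac9, of the same deacetylase class and known as a repressor of activity-regulated receptor genes, had 5.74 and 11.0 CPM with sesaminol, against 23.3 and 23.8 CPM in controls, a fall of 2.77-fold (edgeR adjusted p = 0.0207, and 0.0548 with library size alone). Etv1, an ETS factor named after its values were seen, rose 2.07-fold (edgeR adjusted p = 0.0418). It did not pass when control replicate 1 (0.25) or control replicate 2 (0.362) was left out, nor with upper quartile scaling (0.0621), library size alone (0.0581) or limma-voom (0.0622). Gabpa, the ETS factor that binds the N-box, had 80.4 and 90.7 CPM with sesaminol, against 80.4 and 84.1 CPM in controls, and did not pass (edgeR adjusted p = 0.927). Gabpa overlaps Atp5j, so reads may have been shared.

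Of 13 tested genes in the list of receptor assembly and congenital myasthenia enzymes, 0 passed the test in edgeR, DESeq2 or limma-voom. At an unadjusted p under 0.05 in edgeR, 1 was lower and 0 were higher, and the share of all genes at that threshold was not counted. Vma21, placed in that list though it assembles the vacuolar proton pump and not the receptor, came nearest. It had 75.1 and 59.0 CPM with sesaminol, against 100.4 and 111 CPM in controls (edgeR adjusted p = 0.0711).

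**Figure D5:**
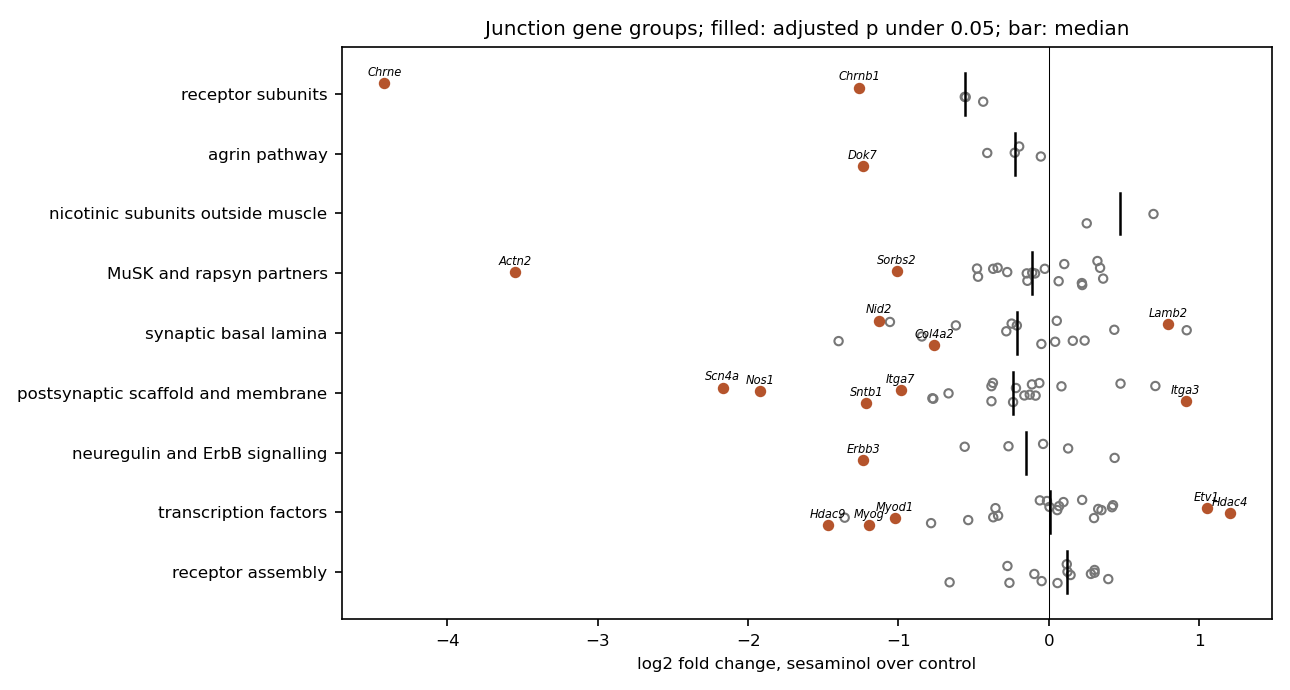
Log2 fold change of sesaminol over control for each tested gene of the receptor, the agrin pathway and 7 lists of other junction genes; filled points have an edgeR adjusted p under 0.05 and the bar is the list's median. Chrne and Actn2 lie farthest to the left.

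The genes most like Chrna1 in log2 CPM over the 4 libraries, each centred on its mean, were Rtel1, Akt2, Snhg4, Srsf7 and Hsf2bp, at Euclidean distances from 0.0357 to 0.0655 among 10961 candidates. Akt2, the one with the highest level, had 223 and 178 CPM with sesaminol, against 283 and 269 CPM in controls. Those most like Musk were Zswim6, Foxo1, Ttc27, Ermp1 and Nek4, at distances from 0.0259 to 0.0959. Foxo1 had 32.7 and 51.9 CPM with sesaminol, against 41.8 and 44.4 CPM in controls. With 4 libraries such likeness is a description.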

How the data were processed

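Per the labels' protocols, polyadenylated RNA was made into Illumina libraries. The deposited table holds raw counts per gene for 4 libraries, not normalized by the authors. Per the submitters' processing notes, fastp, FastQC, MultiQC, Picard, featureCounts and edgeR were used with the build GRCm38. No aligner or strand setting is given there. Even numbers made up 75.8% to 79.6% of the values between 1 and 12, so both reads of a pair may have been counted.

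Genes were filtered with filterByExpr and scaled by TMM. Its minimum count of 10 is applied as a CPM cutoff in at least 2 libraries, and the total must be at least 15. The groups were compared with edgeR 4.0.16 (glmQLFit, glmQLFTest, R 4.3.3), two-sided, without covariates, with Benjamini-Hochberg adjustment over 18998 genes. Standard errors are the estimate over the square root of F. Alternatives used DESeq2 1.42.0, limma-voom (limma 3.58.1), other scalings and filters, a replicate block and left-out libraries. The procedure was tested on simulated data. Libraries were not duplicates (chi-square per degree of freedom 4.87 or more for every pair). Of 52636 identifiers, 52489 matched GENCODE M21. A gene was marked uncertain where an overlapping gene had at least 20% of its count. The members and lists were chosen with earlier results of these data known. The genes named are the 10 members, up to 4 per list with the smallest adjusted p, list genes referred to by role, and the 5 nearest profiles to Chrna1 and Musk among genes of at least 5 CPM.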

Additional observations from a re-analysis of the deposited data

How the results depend on the processing

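Over all genes, 516 rose and 615 fell; testing every gene with any count gave 928 and 985, and the replicate block 885 and 978. With single libraries left out, rises ranged from 163 to 1918 and falls from 276 to 2724. Of the 10 receptor and agrin pathway genes, 0 rose under any alternative run, and the count that fell ranged from 2 to 7 with single libraries left out (7 without sesaminol replicate 1). Of the 10, the count that fell was 3 with DESeq2, where Chrng was called and Chrne had no adjusted p. It was 3 with limma-voom, every gene with any count and the block, and 2 with upper quartile scaling, library size alone and counts divided by 2. Among the other junction genes, rises ranged from 0 to 14 and falls from 5 to 31 with single libraries left out, where a lone library is assumed to vary like the other group. Chrnb1 and Dok7 passed in all 11 alternatives. The log2 fold change of Musk changed sign with library size alone (0.039), without control replicate 2 (0.034) and without sesaminol replicate 1 (0.19), and ranged from -0.41 to 0.19 with single libraries left out. The log2 ratio of Chrng to Chrne differed between the groups by 4.05 from group sums, by 3.20 with 1 count added, and by 3.38 to 4.36 with single libraries left out; without sesaminol replicate 2 it has no value. The causes were not tested. The replicate numbers are not said to mark a shared culture, and differences between replicates 1 and 2 correlated at r = -0.054 across genes between the groups; the block moved both counts over all genes by over 1.5 times and changed no call of the 10 genes. Depth limits Chrne, with at most 20 counts in a library.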
